A study of Mus musculus with 10 samples.

Results

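Transcript levels of 39 genes of fatty-acid and cholesterol synthesis were compared between luminal and basal cells of the mouse mammary gland. The genes were chosen by name from the 24594 genes of the count table. They comprise 24 genes of a fatty-acid arm, 11 genes of a sterol arm and 4 genes that control both arms, and the arms were described separately. Of the 39 genes, 38 had enough counts to be tested. The exception was Thrsp, a gene tied to fatty-acid synthesis in the lactating gland, whose highest count in any library was 46.

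The cells came from virgin glands of wild type mice of the strain C57BL/6J, and both groups shared that genotype and strain. No treatment is named for these libraries, and the study's methods give only an age range for its adult mice as a whole. After enzymatic dissociation of the glands, both cell types were purified by flow cytometric sorting, with EpCAM and CD49f as the surface markers. The study's methods for such sorts also describe a lineage stain for CD31 of endothelial cells, CD45 of leukocytes and TER-119 of red blood cells. Luminal cells line the ducts and include the cells that make milk, whereas basal cells form the outer, contractile layer. There were 5 luminal and 5 basal libraries. The study's methods describe biological replicates for its RNA-seq, but fewer per condition than the libraries here, and the labels tie no library to an animal. The p-values therefore measure the spread between these libraries, which may be partly technical. Each sample title names the opposite cell type from the cell type label in all 10 libraries, and the label was used here. All 8 luminal marker genes (keratins Krt8, Krt18 and Krt19, Epcam, Prlr, Elf5, Esr1 and Kit) were higher in the libraries labelled luminal. All 7 basal marker genes (keratins Krt5 and Krt14, Acta2, Myh11, Trp63, Itga6 and Oxtr) were higher in those labelled basal.

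Cells build fatty acids from citrate. ATP citrate lyase makes acetyl-CoA from it, acetyl-CoA carboxylase makes malonyl-CoA, and fatty acid synthase joins these into palmitate, which is then lengthened by elongases, given double bonds by desaturases, activated to acyl-CoA and built into glycerolipids. Sterols start from the same acetyl-CoA, which passes through mevalonate, farnesyl diphosphate, squalene and lanosterol to cholesterol. Both arms are controlled by the sterol regulatory element-binding proteins (SREBPs), and in lactation the luminal cells of the alveoli make the triglycerides of milk fat.

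Levels are given as CPM, a gene's count scaled to a common library total after TMM correction, which allows for differences in library makeup. Library totals ran from 13203146 to 17998165 counts. Changes are log2 fold changes of luminal against basal cells with their standard error (SE), so positive values are higher in luminal cells. A gene is called changed where the quasi-likelihood test of edgeR gave an adjusted p under 0.05, with Benjamini-Hochberg adjustment over all 14609 genes tested. Values for the replicates are given in the order of replicates 1 to 5. Same-numbered luminal and basal libraries share a leading number in their description, whose meaning is not given. In sorted bulk samples, fewer cells of a type and less RNA per cell cannot be told apart.

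Of the 38 genes tested, 16 were higher in luminal cells, 13 were higher in basal cells and 9 did not pass the threshold. Across all genes tested, 64.8% were called, 33.6% as higher in luminal cells and 31.2% as higher in basal cells, so that a call by itself sets no gene apart in this comparison. The fatty-acid arm was split evenly, with 9 of 23 tested genes higher in luminal cells, 9 higher in basal cells and 5 not called. Its median log2 fold change was 0.35, against 0.05 over all genes tested, and it was 0.23 without luminal replicate 1. Its values reached from -2.72 to 3.67. In the sterol arm, 6 of 11 genes were higher in luminal cells, 2 were higher in basal cells and 3 were not called. The sterol arm's median log2 fold change was 1.12, and it was 0.74 without luminal replicate 4.

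Some of the calls reached a change of at least 2-fold. In the fatty-acid arm, 6 such genes were higher in luminal cells (Scd1, Scd2, Elovl6, Acsl1, Gpam and Dgat2) and 2 in basal cells (Fads1 and Cd36). Without luminal replicate 1 these counts were 5 and 4, and the basal count was 1 without luminal replicate 4 or without basal replicate 3. In the sterol arm, 6 such genes were higher in luminal cells (Mvk, Mvd, Idi1, Fdft1, Dhcr7 and Sc5d) and none in basal cells, although Cyp51 lay close to that limit and passed it in some settings. Over all genes tested, 40% passed both limits, 20.9% toward luminal and 19.1% toward basal cells, so that the 6 of 23 fatty-acid genes toward luminal cells were near the share of all genes. In 13 of the 38 genes every luminal library lay above every basal library, and in 8 every basal library lay above every luminal one, against 24.7% and 25.3% of all genes tested (50.1% in either direction).

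**Figure D1:**
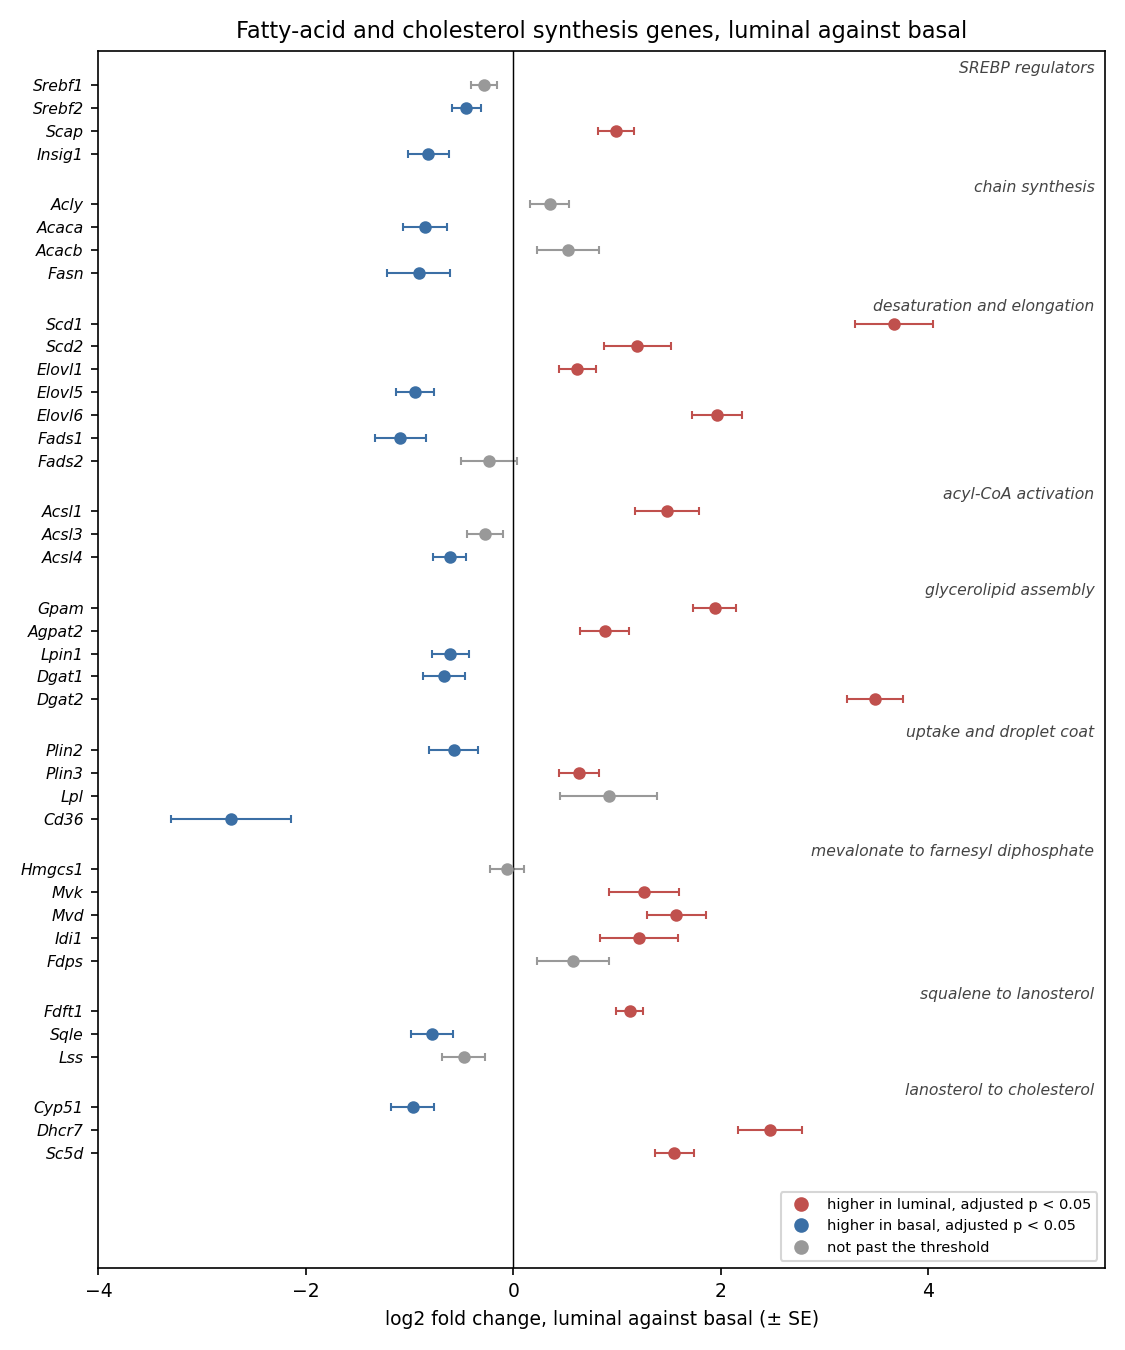
Log2 fold change of luminal against basal cells with its SE for the 38 genes tested, ordered by step of the pathway. Genes higher in luminal cells (red), higher in basal cells (blue) and not past the threshold (grey) occur next to each other in most steps, and Scd1 at 3.67 and Dgat2 at 3.49 lie farthest to the right.

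The SREBP regulators showed small differences that did not share a direction. Srebf1 encodes the SREBP that mainly drives fatty-acid genes. It stood at 204, 176, 174, 196 and 216 CPM in the luminal libraries and at 212, 233, 242, 259 and 229 CPM in the basal libraries. The ranges overlapped by a single luminal library, and the log2 fold change of -0.28 (SE 0.12) had an adjusted p of 0.0545 in edgeR's test, just above the threshold. DESeq2, limma voom and 4 other settings placed it below the threshold.

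Srebf2 encodes the SREBP that mainly drives sterol genes. Its levels were 229, 187, 182, 185 and 231 CPM in luminal and 317, 286, 304, 221 and 261 CPM in basal libraries. It was 1.37-fold higher in basal cells (log2 fold change -0.45, SE 0.14, edgeR adjusted p = 0.0121), with luminal replicates 1 and 5 above the lowest basal library. With library totals in place of TMM scaling this call was lost (adjusted p = 0.115).

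Scap encodes the escort protein that carries SREBPs to the Golgi for cleavage. Its levels were 118, 97.0, 92.1, 123 and 102 CPM in luminal and 36.8, 46.9, 60.7, 71.5 and 52.1 CPM in basal libraries. No library of one group reached the other, and the gene was 1.98-fold higher in luminal cells (log2 fold change 0.99, SE 0.17, edgeR adjusted p = 0.000169). Of its exon bases, 13.2% overlap a gene on the opposite strand (5830462I19Rik), and the library kit does not mark strand, so reads there cannot be told apart. Insig1, whose protein holds SCAP in the endoplasmic reticulum when sterols are plentiful, went the other way. It stood at 13.6, 14.9, 19.1, 27.9 and 15 CPM in luminal and 32.9, 28.0, 38.6, 31.2 and 29.2 CPM in basal libraries. Luminal replicate 4 came close to the lowest basal library without reaching it, and the log2 fold change was -0.82 (SE 0.20, edgeR adjusted p = 0.00235).

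Among the 4 tested genes of the enzymes that build the palmitate chain, Acaca and Fasn were called higher in basal cells and none was called higher in luminal cells. Fasn encodes fatty acid synthase. Its levels were 108, 39.5, 45.4, 27.2 and 77.3 CPM in luminal libraries and 89.1, 96.1, 113, 138 and 125 CPM in basal libraries. Luminal replicate 1 lay within the basal range and the other luminal libraries lay below it. Fasn was 1.88-fold higher in basal cells (log2 fold change -0.91, SE 0.30, edgeR adjusted p = 0.0157).

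Acaca encodes the cytosolic acetyl-CoA carboxylase. Its luminal levels were 17.6, 10.9, 9.75, 12.9 and 16.6 CPM and its basal levels 20.8, 16.6, 25.4, 30.2 and 29.1 CPM. Only the lowest basal library fell within the luminal range, and the gene was 1.81-fold higher in basal cells (log2 fold change -0.85, SE 0.22, edgeR adjusted p = 0.00312). Of the 51-base windows of its longest transcript, 52.3% also occur in the gene Gm5182, so its count depends on how reads with several matches were handled, which is not stated.

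The 2 other tested genes of this step did not pass the threshold. Acly, which encodes ATP citrate lyase, had 98.4 ± 26.2 CPM (SD, n = 5) in luminal cells and, in basal cells, 77.1 ± 13 CPM (SD, n = 5), with an edgeR adjusted p of 0.115. It was called higher in luminal cells in 3 alternative fits, those with upper-quartile factors, with library totals or without luminal replicate 4 (adjusted p 0.021 to 0.0358). Acacb, which encodes the carboxylase of the mitochondrial surface, had 4.03 ± 0.797 CPM (SD, n = 5) in luminal cells and, in basal cells, 2.80 ± 0.837 CPM (SD, n = 5), with an edgeR adjusted p of 0.135. Thrsp stood at 0.876, 0.421, 0.429, 3.51 and 1.02 CPM in luminal libraries, and 4 of the 5 basal libraries had no count of it.

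Desaturation and elongation held both the largest luminal excess of the fatty-acid arm and clear basal excesses. Of 7 genes, 4 were higher in luminal cells and 2 in basal cells. Scd1 (Entrez Gene 20249, chr19:44394450-44407709, minus strand, GRCm38.p6) encodes a stearoyl-CoA desaturase, which makes monounsaturated fatty acids. It stood at 596, 237, 229.7, 187 and 634 CPM in luminal libraries and at 18.4, 23.7, 28.3, 40.6 and 37.0 CPM in basal libraries. Every luminal library was far above every basal one, and luminal replicates 1 and 5 were far above the other luminal libraries. Scd1 was 12.7-fold higher in luminal cells (log2 fold change 3.67, SE 0.38, edgeR adjusted p = 1.08e-06).

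Scd2 (Entrez Gene 20250, chr19:44293676-44306864, plus strand, GRCm38.p6), a second stearoyl-CoA desaturase gene on the same chromosome, differed less. Its levels were 245, 85.9, 143, 94.0 and 192 CPM in luminal and 27.8, 71.2, 96.7, 71.7 and 64.6 CPM in basal libraries. The ranges overlapped, with basal replicate 3 above luminal replicates 2 and 4, and the gene was 2.29-fold higher in luminal cells (log2 fold change 1.2, SE 0.32, edgeR adjusted p = 0.00493). Of the 51-base windows of the Scd1 transcript, 4.54% also occur in other genes, mostly Scd3, and 3.89% of those of Scd2 do, mostly in Scd1.

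The elongases divided by gene. Elovl6, which lengthens palmitate to stearate, stood at 28.6, 13.1, 20.1, 21.2 and 27.3 CPM in luminal and at 3.93, 4.64, 6.11, 6.56 and 7.01 CPM in basal libraries. The groups were far apart, with a 3.90-fold higher level in luminal cells (log2 fold change 1.96, SE 0.24, edgeR adjusted p = 7.03e-06). Elovl5, which lengthens polyunsaturated fatty acids, stood at 20.4, 19.0, 13.2, 10.7 and 18.5 CPM in luminal and at 29.1, 29.8, 33.2, 31.6 and 34.3 CPM in basal libraries. Here every basal library was above every luminal one, and the level was 1.93-fold higher in basal cells (log2 fold change -0.95, SE 0.18, edgeR adjusted p = 0.000376). Elovl1, which acts on saturated very long chains, stood at 51.9, 39.8, 36.8, 43.6 and 49.2 CPM in luminal and at 20.2, 28.4, 30.6, 39.6 and 25.6 CPM in basal libraries. Basal replicate 4 lay among the luminal values, and the log2 fold change was 0.62 (SE 0.18, edgeR adjusted p = 0.00753).

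Fads1 and Fads2 encode the delta-5 and delta-6 desaturases of polyunsaturated fatty acids. Fads1 stood at 109, 62.9, 58.0, 35.4 and 83.6 CPM in luminal and at 116, 150.2, 196, 147 and 133 CPM in basal libraries. Luminal replicate 1 came closest to the basal values, and the gene was 2.13-fold higher in basal cells (log2 fold change -1.09, SE 0.25, edgeR adjusted p = 0.00141). Fads2 stood at 72.2, 48.8, 37.7, 26.0 and 61.3 CPM in luminal and at 33.4, 61.6, 80.9, 63.5 and 50.9 CPM in basal libraries. These ranges lay over each other and no difference was called (log2 fold change -0.24, SE 0.27, edgeR adjusted p = 0.454).

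The 3 acyl-CoA synthetase genes, whose products activate free fatty acids, took 3 different courses. Acsl1 stood at 38.8, 11.6, 15.8, 13.4 and 27.2 CPM in luminal and at 7.73, 7.37, 6.27, 9.50 and 7.25 CPM in basal libraries. The groups did not overlap, but luminal replicate 1 was 3.35-fold above luminal replicate 2, and the log2 fold change was 1.48 (SE 0.31, edgeR adjusted p = 0.000704). Acsl4, which prefers arachidonic acid, stood at 72.7, 124, 89.1, 100.2 and 73.3 CPM in luminal and at 152, 128, 135, 132 and 156 CPM in basal libraries. It was 1.53-fold higher in basal cells without overlap (log2 fold change -0.61, SE 0.16, edgeR adjusted p = 0.00336). Acsl3 had 41.0 ± 8.41 CPM (SD, n = 5) in luminal cells and, in basal cells, 49.5 ± 9.06 CPM (SD, n = 5), a difference within the spread (edgeR adjusted p = 0.179).

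All 5 genes of glycerolipid assembly were called, 3 as higher in luminal cells and 2 as higher in basal cells, and none had overlapping libraries. Over all genes tested, 64.8% were called and 50.1% had libraries that did not overlap. Gpam encodes the mitochondrial enzyme that adds the first acyl chain to glycerol 3-phosphate. It stood at 83.1, 44.7, 62.5, 38.9 and 45.4 CPM in luminal and at 11.6, 15.1, 14.2, 14.4 and 16.1 CPM in basal libraries. The basal libraries lay close together and far below the luminal ones, a 3.84-fold difference (log2 fold change 1.94, SE 0.21, edgeR adjusted p = 1.55e-06). Agpat2, which adds the second acyl chain, stood at 21.8, 15.5, 21.7, 24 and 26.8 CPM in luminal and at 5.99, 10.9, 13.5, 15.4 and 13.7 CPM in basal libraries. Luminal replicate 2 and basal replicate 4 nearly met, and the log2 fold change was 0.88 (SE 0.24, edgeR adjusted p = 0.00471).

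Lpin1 encodes a phosphatidate phosphatase, which makes diacylglycerol. It stood at 43.1, 26.2, 32.8, 39.2 and 40.1 CPM in luminal and at 47.6, 66.9, 68.8, 44.6 and 48.3 CPM in basal libraries. The gap between the groups was narrow, and the log2 fold change was -0.61 (SE 0.18, edgeR adjusted p = 0.00782).

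The last step to triglyceride is made by DGAT1 or DGAT2, enzymes of unrelated families, and their genes went in opposite directions. Dgat2 (Entrez Gene 67800, chr7:99153663-99182713, minus strand, GRCm38.p6) stood at 300.5, 112, 166, 279.9 and 260.1 CPM in luminal and at 20.3, 16.8, 16.9, 27.5 and 18.1 CPM in basal libraries. Its luminal levels were far above the basal ones in every library, with an 11.2-fold difference (log2 fold change 3.49, SE 0.27, edgeR adjusted p = 5.16e-08). Dgat1 (Entrez Gene 13350, chr15:76502012-76512021, minus strand, GRCm38.p6) stood at 10.3, 13.9, 19.0, 21.4 and 15.5 CPM in luminal and at 34.5, 24.2, 22.7, 24 and 21.6 CPM in basal libraries. The highest luminal library lay just under the lowest basal one, and the gene was 1.59-fold higher in basal cells (log2 fold change -0.67, SE 0.21, edgeR adjusted p = 0.011), a call lost with library totals in place of TMM scaling (adjusted p = 0.0555).

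Genes of lipid droplets and fatty-acid uptake also differed in direction. Plin3, which encodes a widely expressed droplet coat protein, stood at 102, 94.3, 95.8, 65.1 and 77.2 CPM in luminal and at 33.2, 66.4, 68.2, 54.3 and 57.4 CPM in basal libraries. Only luminal replicate 4 fell into the basal range, and the log2 fold change was 0.64 (SE 0.19, edgeR adjusted p = 0.00961). Plin2, which encodes the main coat protein of milk fat droplets, stood at 156, 154, 108, 105 and 117 CPM in luminal and at 151, 224, 228, 256 and 93.7 CPM in basal libraries. Basal replicate 5 was the lowest of all 10 libraries, and the call was borderline (log2 fold change -0.58, SE 0.24, edgeR adjusted p = 0.0456). It was lost in 10 of 18 alternative fits, 6 of which left out a library: luminal replicate 3, 4 or 5, or basal replicate 2, 3 or 4.

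Cd36 and Lpl, both genes of fatty-acid uptake, were at low levels in both cell types. Cd36, a fatty-acid transporter, stood at 0.438, 0.579, 1.72, 0 and 0.634 CPM in luminal and at 5.80, 4.30, 3.64, 3.63 and 5.39 CPM in basal libraries. Every basal library was above every luminal one (log2 fold change -2.72, SE 0.58, edgeR adjusted p = 0.000871). Without luminal replicate 3, the highest luminal library, the log2 fold change was -3.42 (adjusted p = 0.00019). Lpl, which encodes the lipase that frees fatty acids from lipoproteins, had 1.94 ± 0.669 CPM (SD, n = 5) in luminal cells and, in basal cells, 1.02 ± 0.545 CPM (SD, n = 5), with an edgeR adjusted p of 0.0999.

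Endothelial cells, adipocytes and macrophages also express Cd36. The summed level of 8 endothelial markers ranged from 6.07 to 10.8 CPM in luminal and from 12.5 to 19.7 CPM in basal libraries. Of the 5 that could be tested, Cdh5 and Cldn5 were higher in basal cells, Egfl7 was higher in luminal cells (log2 fold change 1.2, edgeR adjusted p = 0.0461) and Pecam1 and Flt1 were not called. Cdh5 ranged from 0.0527 to 0.491 CPM in luminal and from 2.69 to 6.69 CPM in basal libraries. Of 10 adipocyte markers, 5 stayed under 1 CPM everywhere, among them Adipoq, which was at 0 in every library. Without Lipe, which these cells express, the adipocyte sum ranged from 1.94 to 3.31 CPM in luminal and from 4.18 to 9.13 CPM in basal libraries. Most of the basal sum came from Fabp4, at 5.42 CPM on average against 1.01 CPM in luminal cells, whereas Retn was at 0.263 to 2.52 CPM in luminal and 0 to 0.312 CPM in basal libraries. The summed level of 8 immune markers ranged from 23.6 to 32.7 CPM in luminal and from 49.1 to 78.1 CPM in basal libraries. Of the 6 that could be tested, Cd68, Cd74 and Csf1r were higher in basal cells, Lyz2 and Cd52 were higher in luminal cells and Fcer1g was not called. Ptprc, which encodes CD45, and Adgre1 stayed under 1 CPM everywhere. How far the lineage stain for CD31 and CD45 removed endothelial cells and leukocytes from these libraries is not known. The part of such cells in the Cd36 difference was not tested.

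**Figure D2:**
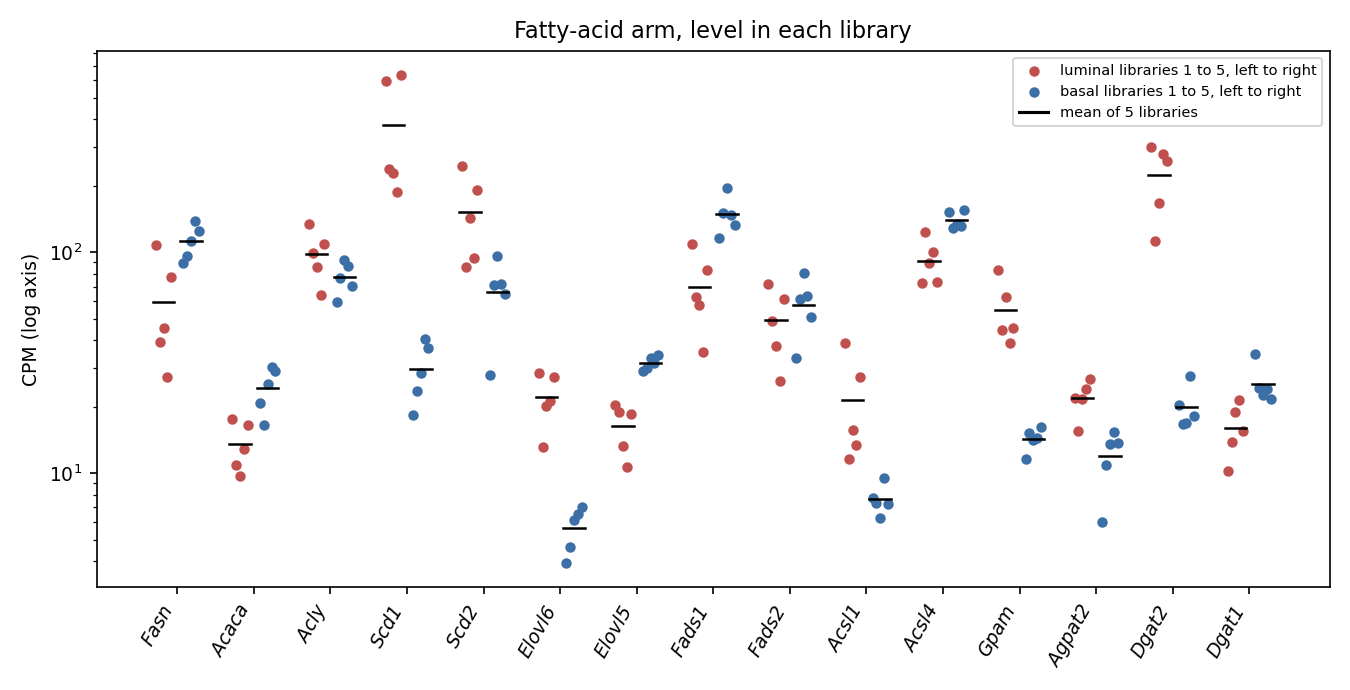
Level of selected fatty-acid arm genes in the 5 luminal (red) and 5 basal (blue) libraries in CPM on a log axis, with the mean as a bar. Acacb, Thrsp, Elovl1, Acsl3, Lpin1, Plin2, Plin3, Lpl and Cd36 are not drawn. Among the genes drawn, Scd1 and Dgat2 show the widest gaps, with luminal means of 377 and 224 CPM against basal means of 29.6 and 19.9 CPM.

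To rank the genes by level, CPM was divided by the length of the exons in kilobases. On this scale Scd1 (77.0 CPM per kb) and Dgat2 (72.6 CPM per kb) were the most abundant members of the fatty-acid arm in luminal cells, followed by Plin2 (36.4 CPM per kb) and Scd2 (27.8 CPM per kb). The order of Scd1 and Dgat2 is not resolved, since the SD of Scd1 over luminal libraries was 58.0% of its mean. In basal cells the order began with Plin2 (54.2 CPM per kb), Fads1 (30.9 CPM per kb) and Acsl4 (26.0 CPM per kb), while Scd1 and Dgat2 stood at 6.05 and 6.46 CPM per kb. Fasn itself was modest on this scale, at 5.44 CPM per kb in luminal and 10.2 CPM per kb in basal cells.

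As a further description, the ratio of the counts of related genes was taken within each library, which needs no scaling between libraries. These ratios are not corrected for gene length, so they compare libraries and do not rank the genes of a pair. There were 8 pairs, chosen after the values had been seen, so no test is given. In 6 pairs the groups did not overlap. The ratio of Dgat2 to Dgat1 had a median of 13.1 (range 8.05 to 29.3) in luminal and 0.747 (range 0.588 to 1.15) in basal libraries. Per kilobase of exon, Dgat2 and Dgat1 stood at 72.6 and 5.24 CPM per kb in luminal cells and at 6.46 and 8.31 CPM per kb in basal cells.

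The ratio of Scd1 to Scd2 had a median of 2.43 (range 1.60 to 3.31) in luminal and 0.567 (range 0.293 to 0.663) in basal libraries. Per kilobase, Scd1 and Scd2 stood at 77.0 and 27.8 CPM per kb in luminal cells and at 6.05 and 12.2 CPM per kb in basal cells. The ratio of Elovl6 to Elovl5 had a median of 1.48 (range 0.690 to 1.99) in luminal and 0.184 (range 0.135 to 0.208) in basal libraries. Per kilobase, Elovl6 was below Elovl5 in both cell types, at 3.43 and 4.65 CPM per kb in luminal cells and at 0.879 and 8.98 CPM per kb in basal cells. The ratio of Fads1 to Fads2 was steady within each cell type, from 1.29 to 1.54 in luminal and from 2.32 to 3.49 in basal libraries, although Fads2 alone did not pass the threshold. Per kilobase, Fads1 and Fads2 stood at 14.5 and 14.9 CPM per kb in luminal cells and at 30.9 and 17.6 CPM per kb in basal cells.

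The ratio of Acaca to Acacb was lower in luminal libraries (range 2.12 to 4.45) than in basal libraries (range 6.39 to 15.6). The ratio of Plin2 to Plin3 was lower too, from 1.12 to 1.63 in luminal and from 1.63 to 4.71 in basal libraries, so that the groups nearly touched. For Srebf1 against Srebf2 and for Acsl3 against Acsl4 the ranges overlapped.

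**Figure D3:**
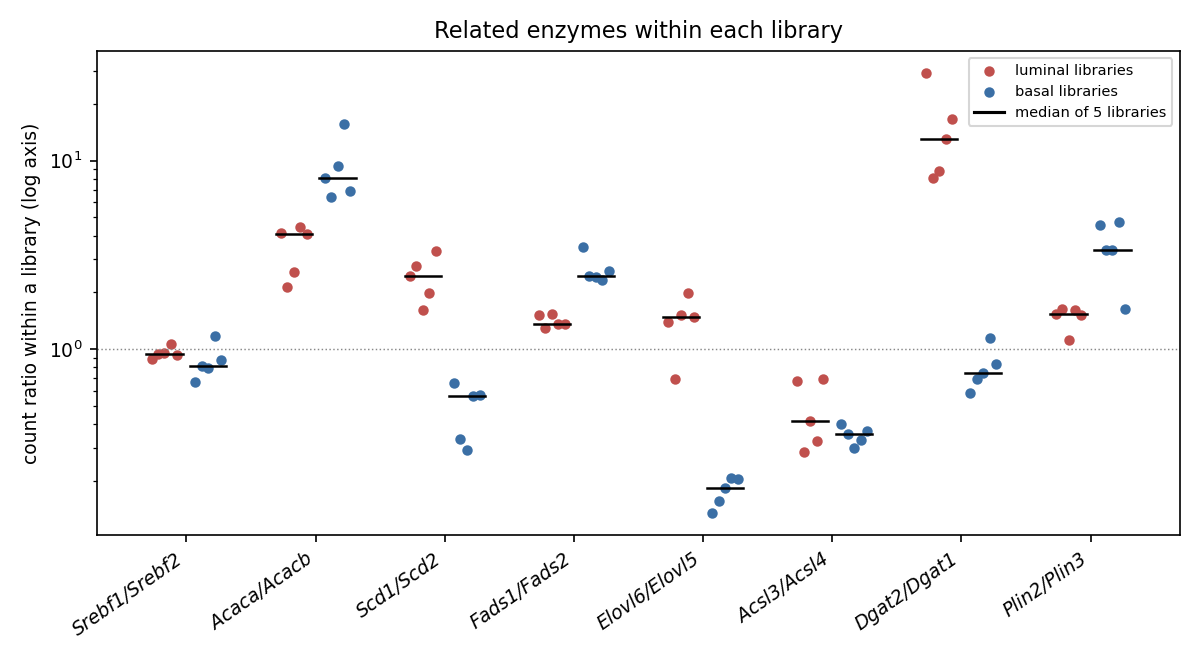
Ratio of the counts of 2 related enzymes or regulators in each luminal (red) and basal (blue) library, on a log axis. The groups are separate for 6 of the 8 pairs, most widely for Dgat2 to Dgat1 with medians of 13.1 and 0.747, and they overlap for Srebf1 to Srebf2 and Acsl3 to Acsl4.

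The luminal libraries differed among themselves in the fatty-acid arm. Luminal replicate 1 was the highest luminal library in 15 of 23 fatty-acid genes, or 65.2%, against 24.2% of all genes tested, and it was so in 13 with library totals in place of TMM scaling. Luminal replicates 1 and 5 were the top pair in 12 of 23 genes, or 52.2%, against 18.9% of all genes tested. These were Acly, Acaca, Fasn, Scd1, Scd2, Elovl1, Elovl6, Fads1, Fads2, Acsl1, Acsl3 and Lpin1. Luminal replicate 4 was the lowest in 12 of 23 genes, against 29.9% of all genes tested. Among basal libraries, replicate 1 was the lowest in 12 of 23 fatty-acid genes, or 52.2%, against 27.4% of all genes tested. From the lowest to the highest luminal library, Fasn differed 3.98-fold, Scd1 3.38-fold, Acsl1 3.35-fold and Fads1 3.08-fold. Over the basal libraries, these genes differed 1.55-fold, 2.21-fold, 1.52-fold and 1.68-fold. Scd2 and Plin2 spread more over basal libraries, 3.49-fold and 2.73-fold, against 2.86-fold and 1.48-fold over luminal ones.

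The genes that varied together over luminal libraries thus included some called higher in luminal cells, such as Scd1. Others, such as Fasn and Fads1, were called higher in basal cells. Among genes with a mean of at least 10 CPM, the median coefficient of variation over luminal libraries was 26.9% in 20 fatty-acid genes and 25.3% in 10 sterol genes, against 19.9% in 9805 genes tested. Over basal libraries it was 21.7% in 18 fatty-acid genes, 20.3% in 6 sterol genes and 15.9% in 9472 genes tested. Some markers of luminal progenitors and of milk fat secretion had their highest levels in the same luminal libraries, replicates 1 and 5. Elf5, a transcription factor of luminal progenitors and alveolar cells, stood at 127, 89.6, 66.7, 55.7 and 122 CPM in luminal libraries, and Kit, a receptor of luminal progenitors, at 288, 148, 129, 138 and 208 CPM. Btn1a1, which encodes butyrophilin of the milk fat globule membrane, stood at 92.1, 29.9, 28.2, 33.8 and 75.1 CPM. Esr1, the oestrogen receptor gene of hormone-sensing luminal cells, varied less, from 85.7 to 112 CPM. These marker genes were picked after their values had been seen. Of the other luminal markers listed, Epcam was also highest in luminal replicates 1 and 5. Krt8, Krt18 and Prlr were highest in luminal replicates 4 and 5, and Krt19 in luminal replicates 2 and 4. Prlr ranged from 914 to 1587 CPM over the luminal libraries.

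Fibroblast markers also varied over the luminal libraries. Dcn, the decorin gene, stood at 95.1, 18.8, 39.5, 11.6 and 26.6 CPM, and Lum, Dpt and Pdgfrb were at 0 in luminal replicate 4. The sum of 7 fibroblast markers ranged from 23.7 CPM in luminal replicate 4 to 112 CPM in luminal replicate 1, and from 36.9 to 52.3 CPM over the basal libraries. Dcn made up 95.1 of those 112 CPM. Among luminal libraries Pdgfra, Col1a1, Col3a1, Pdgfrb and Dpt were highest in replicate 5 and Lum in replicate 3, while Col1a1, Lum, Pdgfrb and Dpt shared with Dcn their lowest level in replicate 4. The part of fibroblasts and of the makeup of luminal cells in the spread of the fatty-acid genes was not tested.

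**Figure D4:**
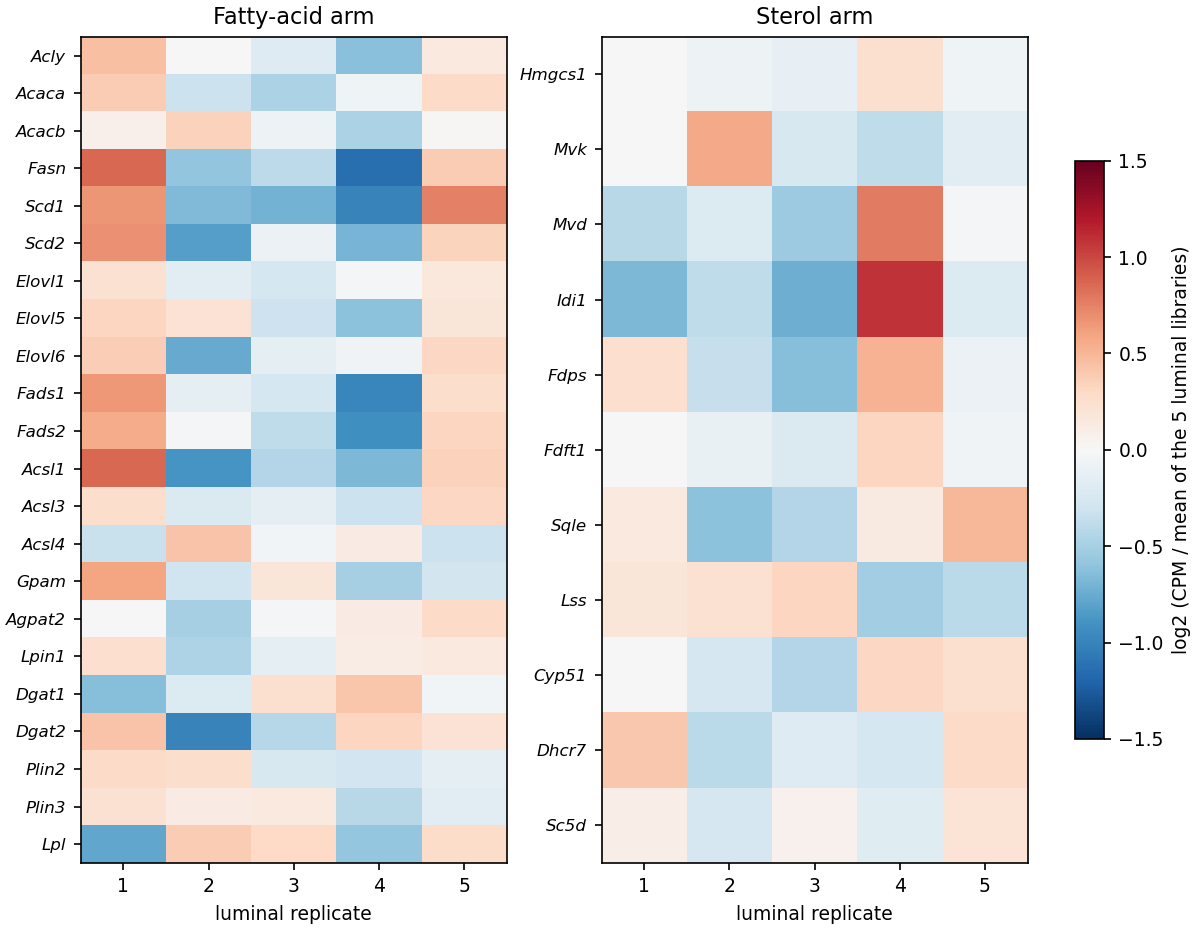
Level in each luminal library relative to the mean of the 5 luminal libraries, on the log2 scale, for the 22 fatty-acid genes tested that had counts in every luminal library and for the 11 sterol genes. Red columns under replicates 1 and 5 mark most fatty-acid genes down to Acsl3, and replicate 4 stands out in blue there but in red for Mvd and Idi1.

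The sterol arm leaned to luminal cells in the steps to farnesyl diphosphate and in the last steps to cholesterol, with calls of opposite direction between them. Upstream sequence could be read for 8 of the 11 sterol genes, in the RefSeq windows of GRCm38.p6 that run from 250 bases before to 50 bases after the start of the gene. Each of the 8 genes had a window with a CCAAT box (CCAAT, or ATTGG on the other strand), the site known for the factor NF-Y, which works beside SREBPs at many sterol genes. Such a box was also found in 12 of 18 fatty-acid genes and in 42.9% of the 11409 tested genes with a window. The sterol genes with a box included Hmgcs1 and Lss, which were not called. Stretches are shown from 4 genes higher in luminal cells and from Cyp51, which was higher in basal cells, since the box was present in genes of either direction. The capitals mark the box nearest before the start, and for Dhcr7 that start lies inside the span of the gene.
Mvd, chr8:122443425-122443469, minus strand: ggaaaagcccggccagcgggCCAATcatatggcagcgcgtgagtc
Idi1, chr13:8885572-8885605, plus strand: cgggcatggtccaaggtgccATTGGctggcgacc
Dhcr7, chr7:143830145-143830189, plus strand: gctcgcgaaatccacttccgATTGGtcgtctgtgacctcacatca
Sc5d, chr9:42264301-42264344, minus strand: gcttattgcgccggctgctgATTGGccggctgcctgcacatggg
Cyp51, chr5:4104702-4104746, minus strand: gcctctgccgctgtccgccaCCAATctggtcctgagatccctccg

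A core of the sterol regulatory element (TCACNCCAC, or GTGGNGTGA on the other strand) was found in the windows of only 2 of the 30 genes with a window, Hmgcs1 and Acsl1, against 1.36% of the 11409 tested genes. Both are shown as the matches to the SREBP site, with the core in capitals. Acsl1 was called higher in luminal cells and Hmgcs1 was not called, and their difference was not tested. The start used for Acsl1 lies inside the span of the gene. An E-box of the letters CACGTG was found for 6 of the 30 genes with a window (Scap, Insig1, Elovl5, Plin2, Dhcr7 and Sc5d), against 11.3% of the tested genes, and these 6 genes were called in both directions. A match describes letters in this window and no binding was measured.
Hmgcs1, chr13:119690194-119690242, plus strand: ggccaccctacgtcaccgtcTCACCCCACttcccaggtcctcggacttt
Acsl1, chr8:46490870-46490918, plus strand: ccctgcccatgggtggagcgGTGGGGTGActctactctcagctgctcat

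Between acetyl-CoA and farnesyl diphosphate, 3 of 5 genes were higher in luminal cells and none in basal cells. Mvk, which encodes mevalonate kinase, stood at 3.50, 5.16, 2.94, 2.67 and 3.11 CPM in luminal and at 1.37, 0.955, 1.39, 1.44 and 2.10 CPM in basal libraries. The level was low in both cell types but the groups did not overlap, and the log2 fold change was 1.26 (SE 0.34, edgeR adjusted p = 0.00461). Mvd, which encodes the decarboxylase that makes isopentenyl diphosphate, stood at 8.57, 9.90, 7.85, 19.5 and 11.3 CPM in luminal and at 4.18, 3.21, 4.80, 4.31 and 2.70 CPM in basal libraries. Luminal replicate 4 was the highest by far, and the gene was 2.97-fold higher in luminal cells (log2 fold change 1.57, SE 0.29, edgeR adjusted p = 0.000239).

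Idi1, which encodes the isomerase of isopentenyl diphosphate, stood at 7.57, 9.27, 7.24, 25.6 and 10.5 CPM in luminal and at 5.99, 2.93, 6.58, 7.06 and 3.36 CPM in basal libraries. The gap to the basal libraries was small apart from luminal replicate 4. Its log2 fold change of 1.21 (SE 0.38, edgeR adjusted p = 0.0115) fell to 0.74 (adjusted p = 0.0381) without that library. Of its 51-base windows, 21.3% also occur in the gene Gm13502.

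Fdps and Hmgcs1 were not called. Fdps, which encodes farnesyl diphosphate synthase, had 13.6 ± 4.33 CPM (SD, n = 5) in luminal cells and, in basal cells, 9.14 ± 4.80 CPM (SD, n = 5), with an edgeR adjusted p of 0.157. It passed the threshold without basal replicate 4 (adjusted p = 0.0452), and 11.6% of its 51-base windows also occur in the gene Gm43738, which overlaps it. Hmgcs1, which encodes the cytosolic HMG-CoA synthase and holds the element printed above, had 45.2 ± 4.75 CPM (SD, n = 5) in luminal cells and, in basal cells, 47.3 ± 10.8 CPM (SD, n = 5). Its log2 fold change was -0.06 (SE 0.17, edgeR adjusted p = 0.751), with a sign that turned with the scaling.

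From squalene to lanosterol, neighbouring steps differed in direction. Fdft1 encodes squalene synthase, the first enzyme committed to sterols. It stood at 116, 107, 99.6, 145 and 112 CPM in luminal and at 54.4, 49.7, 57.3, 56.5 and 48.5 CPM in basal libraries. The groups were well apart with little spread within them, a 2.17-fold difference (log2 fold change 1.12, SE 0.13, edgeR adjusted p = 3.99e-06). Of its exon bases, 18.3% overlap Ctsb, an abundant gene on the opposite strand at 517 to 994 CPM in luminal and 518 to 644 CPM in basal libraries, whose own difference was not called (edgeR adjusted p = 0.249). A further caution is that 10.6% of its 51-base windows also occur in the gene Gm6781.

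Sqle encodes squalene epoxidase, which follows squalene synthase and is a control point of the arm. It stood at 61.0, 36.2, 40.8, 60.6 and 77.8 CPM in luminal and at 92.0, 82.3, 111, 115 and 77.0 CPM in basal libraries. Luminal replicate 5 just reached the basal range, and the gene was 1.73-fold higher in basal cells (log2 fold change -0.79, SE 0.20, edgeR adjusted p = 0.00364). Lss, which encodes lanosterol synthase, had 11.2 ± 2.86 CPM (SD, n = 5) in luminal cells and, in basal cells, 15.6 ± 2.45 CPM (SD, n = 5). At an edgeR adjusted p of 0.0546 it missed the threshold narrowly, and 6 of 18 alternative fits placed it below.

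All 3 genes between lanosterol and cholesterol were called and had groups that did not overlap, against 64.8% called and 50.1% without overlap over all genes tested. Cyp51, which encodes lanosterol 14-alpha-demethylase, stood at 21.5, 18, 15.8, 26.4 and 25.3 CPM in luminal and at 60.2, 28.6, 41.3, 39.8 and 39.1 CPM in basal libraries. It was the sole member of this step higher in basal cells, by 1.96-fold (log2 fold change -0.97, SE 0.20, edgeR adjusted p = 0.000825). Sc5d, which encodes lathosterol oxidase, stood at 95.5, 74.7, 93.2, 78.0 and 103 CPM in luminal and at 19.8, 35.1, 40.7, 26.1 and 30.0 CPM in basal libraries. The lowest luminal library was well above the highest basal one, and the difference was 2.93-fold (log2 fold change 1.55, SE 0.19, edgeR adjusted p = 4.87e-06).

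Dhcr7 (Entrez Gene 13360, chr7:143823167-143848410, plus strand, GRCm38.p6) encodes the reductase that turns 7-dehydrocholesterol into cholesterol. It stood at 13.8, 7.85, 9.14, 8.70 and 12.7 CPM in luminal and at 2.68, 0.955, 1.62, 2.50 and 1.56 CPM in basal libraries. Its 5.56-fold difference was the largest of the sterol arm (log2 fold change 2.47, SE 0.31, edgeR adjusted p = 7.2e-06). Luminal replicates 1 and 5 were the highest luminal libraries here, whereas luminal replicate 4 was the highest in 6 of the 11 sterol genes, or 54.5%, against 26.5% of all genes tested. That count was 5 with library totals in place of TMM scaling.

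**Figure D5:**
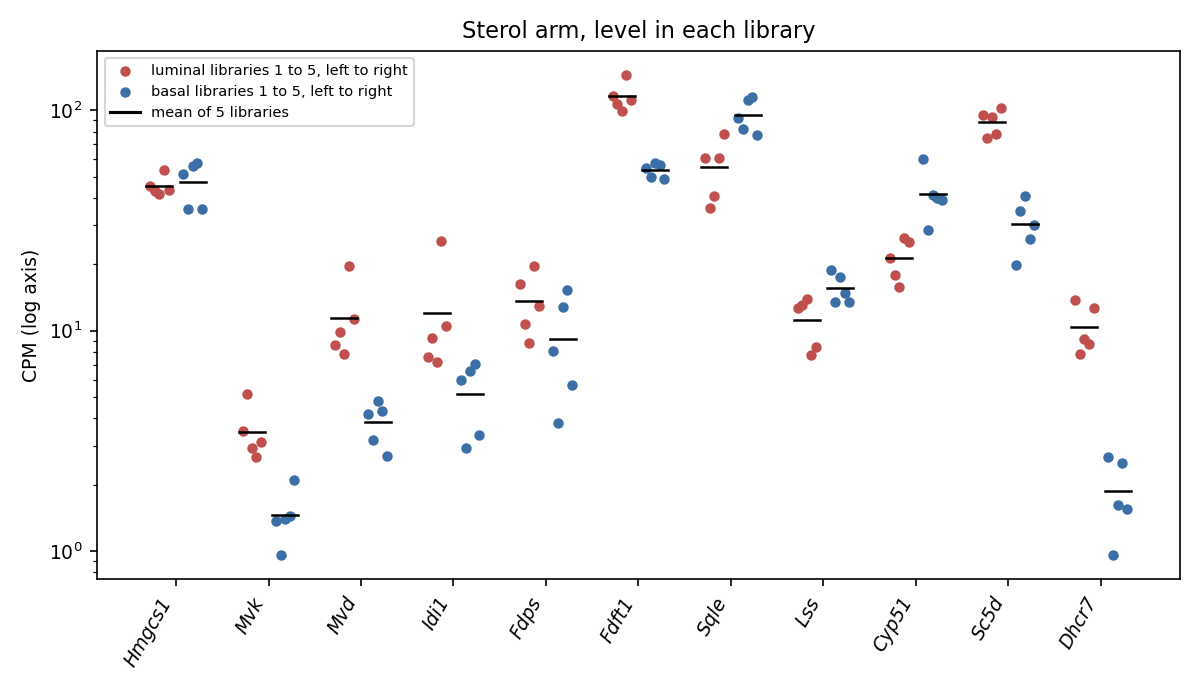
Level of each sterol arm gene in the 5 luminal (red) and 5 basal (blue) libraries in CPM on a log axis, in pathway order, with the mean as a bar. The groups are apart with luminal cells higher for Mvk, Mvd, Idi1, Fdft1, Sc5d and Dhcr7, and with basal cells higher for Cyp51, while luminal replicate 4 stands above the other luminal libraries for Mvd and Idi1.

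On the scale per kilobase, Fdft1 (27.4 CPM per kb) and Sc5d (18.3 CPM per kb) were the most abundant sterol genes in luminal cells. In basal cells Sqle (17.2 CPM per kb) and Fdft1 (12.6 CPM per kb) led. Mvk was at 1.30 CPM per kb in luminal and 0.542 CPM per kb in basal cells.

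Beyond the 39 genes, 73 further genes of these pathways were listed and 66 of them tested, of which 29 were higher in luminal cells and 23 in basal cells. Over all genes tested, 33.6% were called toward luminal and 31.2% toward basal cells, and the counts by list below stand beside the same shares. Of 17 further sterol genes tested, 7 were luminal-high and 8 basal-high at the same threshold.

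Genes that handle finished cholesterol also divided. Abcg1, which encodes a cholesterol exporter, had a log2 fold change of 4.37 (edgeR adjusted p = 1.32e-07). Soat1, whose enzyme esterifies cholesterol for storage, went the other way, with a log2 fold change of -2.54 (edgeR adjusted p = 6.75e-08). Abca1, a second exporter gene, was likewise called toward basal cells (log2 fold change -0.83, edgeR adjusted p = 0.00258). Ggps1, which encodes the enzyme that makes geranylgeranyl diphosphate from farnesyl diphosphate, was also higher in basal cells, with a log2 fold change of -0.89 (edgeR adjusted p = 0.000141).

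Of 17 further fatty-acid genes tested, 7 were called toward luminal and 5 toward basal cells. Elovl4, an elongase of very long chains, had 0.358 ± 0.330 CPM (SD, n = 5) in luminal cells and, in basal cells, 34.9 ± 7.90 CPM (SD, n = 5) (log2 fold change -6.56, edgeR adjusted p = 7.88e-09). Hacd1 and Hacd2, whose dehydratases act in the elongation cycle with the ELOVL enzymes, had log2 fold changes of -4.93 and -2.25 (edgeR adjusted p = 4.95e-08 and 5.95e-08). Other elongation genes of the list, added after their values were seen, were called toward luminal cells. They were Elovl7, another elongase gene (log2 fold change 1.45, edgeR adjusted p = 2.2e-06), and the reductase genes Hsd17b12 (0.75, edgeR adjusted p = 0.00527) and Tecr (0.56, edgeR adjusted p = 0.00174), while Hacd3 was not called (edgeR adjusted p = 0.263). On the luminal side were Fads6 (log2 fold change 5.41, edgeR adjusted p = 2.08e-07), Acsl5 (1.82, edgeR adjusted p = 1.63e-07), which encodes another acyl-CoA synthetase, and Slc27a1 (1.94, edgeR adjusted p = 4.66e-06), which encodes a fatty-acid transport protein.

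Of 17 further glycerolipid genes tested, 9 were called toward luminal and 5 toward basal cells. The lipin genes differed, since Lpin2 (log2 fold change 2.05, edgeR adjusted p = 1.8e-05) and Lpin3 (1.2, edgeR adjusted p = 0.000426) were higher in luminal cells and Lpin1 was not. Gpat3 and Gpat4, which encode acyltransferases of the endoplasmic reticulum for the same first step as Gpam, had log2 fold changes of -0.91 and -0.71 (edgeR adjusted p = 0.000864 and 0.00014). They were higher in basal cells, opposite to Gpam, and Agpat4 (log2 fold change -2.31, edgeR adjusted p = 8.18e-08) was opposite to Agpat2. Abhd5, which encodes an activator of triglyceride breakdown, was higher in luminal cells (log2 fold change 1.63, edgeR adjusted p = 6.13e-07).

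Of 11 further regulators tested, 3 were called toward luminal and 5 toward basal cells. Insig2, the paralog of Insig1, had 115 ± 8.54 CPM (SD, n = 5) in luminal cells and, in basal cells, 69.5 ± 4.88 CPM (SD, n = 5) (log2 fold change 0.73, edgeR adjusted p = 6.82e-05), so the INSIG genes went in opposite directions. Mbtps2, which encodes the second protease that frees SREBPs, had a log2 fold change of -1.46 (edgeR adjusted p = 5.24e-08). Stard4, a sterol carrier, and Mid1ip1, a paralog of Thrsp that activates acetyl-CoA carboxylase, were also higher in basal cells, with log2 fold changes of -1.38 and -0.97 (edgeR adjusted p = 0.00131 and 0.00404). Of the exon bases, 28.4% of Mbtps2, 25.5% of Mid1ip1 and 37.4% of Gpat3 overlap other genes, so their counts are less certain. Of 4 tested milk fat genes, 3 were higher in luminal cells. They were Btn1a1 (log2 fold change 8.09, edgeR adjusted p = 7.53e-08), Gpd1, which makes glycerol 3-phosphate (6.56, edgeR adjusted p = 1.86e-07), and Mfge8, a milk fat globule protein (2.59, edgeR adjusted p = 1.6e-07).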

How the data were processed

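The authors deposited whole-number read counts per gene, not normalized, with 1 column per library and NCBI Entrez identifiers. The submitters' processing notes name cutadapt 4.2, Bowtie2 2.3.5.1 and the builds mm10 and hg19, and the study's methods give alignment to mm10 at default settings. The counting tool, annotation and treatment of strand and of reads with several matches are not given in the sources used here. A RefSeq table of GRCm38.p6, the assembly of mm10, gave a symbol for 24570 of 24594 identifiers. The library kit does not mark strand.

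The cell type label set the groups. Genes were filtered with filterByExpr (minimum count 10, minimum total count 15), scaled with TMM and tested with edgeR 4.0.16 (R 4.3.3, glmQLFTest, two-sided, cell type as the only term), with Benjamini-Hochberg adjustment over all genes. The code was tested on simulated data. The SE was taken as the absolute log2 fold change over the root of the F statistic. Totals of 13203146 to 17998165 counts limit the precision of genes of few CPM. Levels per kilobase used the union of GENCODE M21 exons, and shared windows were 51-base stretches of the longest transcript found in another gene's transcripts.

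Every member is named, as are, from each further list, the 3 largest positive and the 3 largest negative changes past the threshold whose higher group averaged 10 CPM or more; other genes named were added after their values were seen, and some genes that meet the rule are not reported here. The members and lists were chosen with earlier results of these data known. Alternatives were DESeq2 size factors, upper-quartile factors or library totals, no filter, at least 10 counts in every library, DESeq2 1.42.0, limma 3.58.1 with voom, the replicate number as a term and each library left out. Leaving out libraries for the count ratios, and ranking luminal libraries on library totals, were added after the data were seen.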

Additional observations from a re-analysis of the deposited data

Results flagged for a closer look

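In each cell type, the highest and lowest library of each of the 39 genes was compared with the others by Dixon's test for a lone value, at a critical ratio of 0.71 for 5 libraries. It marked 4 of 78 groups of 5, and chance marks about 1 in 20 groups, or 3.9 here. In luminal replicate 4, Idi1 stood at 25.6 CPM, and the other luminal libraries held 7.24 to 10.5 CPM. In basal replicate 1, Dgat1 stood at 34.5 CPM, and the other basal libraries held 21.6 to 24.2 CPM. Thrsp reached 3.51 CPM in the same luminal replicate 4, where the rest of that group held 0.421 to 1.02 CPM. In basal replicate 2 Thrsp stood at 0.409 CPM, and the other basal libraries had no count of it.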

How the results depend on the processing

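Over the 38 tested genes, alternatives other than leaving out a library kept direction and call in 283 values, gained a call in 11, lost one in 6 and turned the sign in 2. With a library left out, 366 values kept both, 6 gained a call, 6 lost one and 2 turned sign. The sign turned for Hmgcs1 alone: its log2 fold change was 0.0596 (upper-quartile factors) and 0.123 (library totals), and ranged from -0.162 to 0.0115 with a library left out, above 0 without basal replicate 3 (0.0115) or 4 (0.00531). Its main value was close to 0. Calls changed for Plin2 (lost in 10 fits, adjusted p 0.0721 to 0.17), Srebf1 (gained in 6, 0.0108 to 0.0459), Lss (gained in 6, 0.0306 to 0.0477), Acly (gained in 3, 0.021 to 0.0358), and, in 1 fit each, Srebf2, Dgat1, Fdps and Lpl. The upper-quartile and library-total scalings moved the median of all genes by 0.12 and 0.19 on the log2 scale toward luminal cells, and DESeq2 size factors by -0.04.

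The fatty-acid median of 0.35 ranged from 0.23 to 0.47 with a library left out, and from 0.32 to 0.54 otherwise. The sterol median of 1.12 ranged from 0.74 to 1.15 with a library left out, and from 1.06 to 1.30 otherwise. Genes at least 2-fold higher in basal cells numbered 2 in the fatty-acid arm. They numbered 1 with upper-quartile factors, library totals or the filter of 10 counts in every library. With no filter, limma voom or the replicate number as a block they numbered 3, and 1 to 4 with a library left out. In the sterol arm they numbered 1 with DESeq2 size factors, no filter or the DESeq2 test, against 0, and 0 to 1 with a library left out. With library totals 1 SREBP regulator was higher in basal cells, against 2, and their median was -0.18, against -0.37. With at least 10 counts in every library, 8 markers of other cell types were tested, of which 1 was called toward luminal and 4 toward basal cells, against 4 and 8 of 19. The cause of these shifts was not tested, beyond the smaller number of genes tested under the stricter filter.

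With the replicate number as a block, 9 fatty-acid genes were called toward luminal and 8 toward basal cells, Plin2 losing its call, and 6 and 3 sterol genes, Lss gaining one. Same-numbered luminal and basal libraries share a leading number in their description whose meaning is not given, and their deviations correlated by -0.134 to 0.252, so the libraries were not treated as paired. Of the luminal libraries, 2 of 5 correlated best with their own number. The log2 differences of the 6 count ratios whose groups did not overlap kept their sign with each library left out. Counting error is large for Cd36, Lpl, Mvk and Thrsp, which had the fewest counts.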
